A study of Homo sapiens with 18 samples.

Results

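Histone genes were followed on 18 bead arrays of HEK293 cells exposed to etoposide. Probes were taken whose gene symbol names a histone (H1, H2A, H2B, H3 or H4) and that were detected, at a detection p-value under 0.05, on at least 3 of the 18 arrays. By symbol there were 100 histone probes of 86 genes among the 47231 probes of the array, and 38 of them, for 32 genes, met the detection rule, out of 22161 probes (12055 named genes) that met it in all. These 38 split into 28 probes of 24 replication-dependent genes, whose symbols carry a C and a number or name an H1 of the clusters, and 10 probes of 8 variant genes.

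HEK293 is a human embryonic kidney line. In every sample the cells' own p65 was targeted by siRNA, and an siRNA-resistant HA-p65, wild type (wt) or S547A, was brought in by a lentivirus. p65, encoded by RELA, is a subunit of the transcription factor NF-kB. Cells of each line were untreated or received etoposide for 4 h or 8 h, which makes 6 groups of 3 arrays from 3 independent experiments. Etoposide traps topoisomerase II on cut DNA. The labels give neither the dose nor whether a line came from 1 clone.

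Histones H2A, H2B, H3 and H4 wrap DNA into the nucleosome, and the linker histone H1 binds the DNA between nucleosomes. Replication-dependent genes are transcribed mainly in S phase, and their mRNAs end in a stem-loop in place of a poly(A) tail. Many variant genes, such as those for H3.3 and H2A.Z, are transcribed through the cell cycle and give polyadenylated mRNAs. H2AX is counted among the variants here, and the kind of mRNA end that its probe reads was not tested. H2AX is phosphorylated beside DNA double-strand breaks, and the modified form is widely used as a mark of such breaks. The arrays measured mRNA, so they say nothing of that phosphorylation. The amplification kit that the labels name is primed with oligo(dT) in its usual protocol, and its part in the signals of mRNAs without a poly(A) tail was not tested.

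The upstream sequences of histone genes hold short elements that recur across the family. In the 250 bases before the transcription start, taken from RefSeq (GRCh38.p14) for 30 of the 32 genes, 3 motifs were searched on both strands: TATAAA, the pentamer CCAAT and the octamer ATTTGCAT. The motifs do not contain one another. TATAAA was present before 63.3% of the 30 genes against 11.1% of 27305 genes in the promoter table, CCAAT before 86.7% against 33%, and the octamer before 36.7% against 1.66%. Among the 49 histone genes that did not meet the detection rule and had a promoter entry, the shares were 59.2%, 85.7% and 32.7%. Detected and undetected histone genes thus had similar shares. The sets are not independent, because some undetected genes share an upstream stretch with a detected gene, so part of the likeness was fixed beforehand. All 8 H2B genes held CCAAT and 75% held the octamer, an element first described in H2B promoters. Of 3 H4 genes none held CCAAT or the octamer in either orientation. A match is a description of letters and not evidence of a bound factor.

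The windows of 5 genes are printed. H2AC20 was called lower at 8 h of etoposide in both lines and H2AC25 in S547A. H2BC5 met the detection rule through untreated cells, so its fall carries no weight. The others are H2AX, and H2BC12, whose signal stayed close to its untreated level. They run 5′ to 3′ on each gene's own strand, and capitals mark the 3 motifs in either orientation. H2AC20 is at chr1:149886668-149886917 (plus strand), H2AC25 at chr1:228457874-228458123 (minus strand) and H2BC5 at chr6:26157871-26158120 (plus strand). H2BC12 is at chr6:27146859-27147108 (minus strand) and H2AX at chr11:119095466-119095715 (minus strand).
H2AC20: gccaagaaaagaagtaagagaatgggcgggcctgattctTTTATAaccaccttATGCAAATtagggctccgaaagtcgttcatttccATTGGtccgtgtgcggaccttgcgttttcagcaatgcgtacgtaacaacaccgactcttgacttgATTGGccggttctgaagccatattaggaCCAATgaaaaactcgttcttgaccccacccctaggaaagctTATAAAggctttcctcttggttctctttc
H2AC25: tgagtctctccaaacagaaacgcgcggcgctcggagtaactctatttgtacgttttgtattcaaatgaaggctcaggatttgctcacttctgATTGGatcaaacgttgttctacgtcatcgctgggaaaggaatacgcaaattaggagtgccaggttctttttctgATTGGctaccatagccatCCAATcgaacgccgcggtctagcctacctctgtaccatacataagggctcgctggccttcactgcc
H2BC5: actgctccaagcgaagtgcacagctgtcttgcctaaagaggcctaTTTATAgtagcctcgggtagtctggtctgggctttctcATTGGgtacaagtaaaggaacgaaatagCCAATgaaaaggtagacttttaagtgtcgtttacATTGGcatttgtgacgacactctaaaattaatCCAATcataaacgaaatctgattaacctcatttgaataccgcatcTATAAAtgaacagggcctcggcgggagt
H2BC12: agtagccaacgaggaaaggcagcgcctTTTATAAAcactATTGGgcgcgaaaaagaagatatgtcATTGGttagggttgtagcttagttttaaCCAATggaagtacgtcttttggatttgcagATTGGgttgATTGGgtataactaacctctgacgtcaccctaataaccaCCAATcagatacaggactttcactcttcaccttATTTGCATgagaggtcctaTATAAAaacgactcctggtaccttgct
H2AX: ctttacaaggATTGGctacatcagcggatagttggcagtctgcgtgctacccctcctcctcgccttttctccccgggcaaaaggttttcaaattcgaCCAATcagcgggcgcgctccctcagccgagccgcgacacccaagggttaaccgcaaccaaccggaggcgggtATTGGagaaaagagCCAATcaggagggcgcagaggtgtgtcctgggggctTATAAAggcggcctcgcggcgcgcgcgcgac
The H2AC20 window held 2 TATAAA matches, 3 CCAAT matches and 1 octamer, and the H2BC5 window 2 TATAAA and 4 CCAAT matches. The H2AC25 window held 3 CCAAT matches and no TATAAA. The H2BC12 window held 3 TATAAA matches, 2 of them overlapping, 6 CCAAT matches and 1 octamer, and the H2AX window 1 TATAAA and 4 CCAAT matches. With H2BC5 left aside, genes with these elements were thus found both among those that fell and among those that did not.

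Many histone genes lie head to head, most often an H2A and an H2B gene read in opposite directions from a shared upstream stretch. Within 500 bases, 12 head-to-head pairs of histone genes were found in the promoter table, from the first listed start of each gene. H2BC7 was counted with both H2AC7 and H3C4, each at 223 bases. The first listed start of H3C4 is that of H2AC7, so these pairs are 1 upstream stretch counted more than once. Both genes met the detection rule in 3 of the 12 pairs. These were H2AC20 with H2BC21 on chromosome 1, with 236 bases between the starts, and H2AC11 with H2BC11 (248 bases) and H2BC17 with H2AC17 (240 bases) on chromosome 6. The start of H2AC25 lies 230 bases from that of H2BC26, which did not meet the rule.

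Arrays were comparable in quality: between 35.8% and 39.2% of probes were detected on each, median intensities were 94.7 to 122, and log2 values correlated at 0.981 to 0.988 within groups and 0.961 to 0.987 between groups. The RELA probe, which cannot tell cellular from lentiviral mRNA by its symbol, was at 7.80 ± 0.32 (SD, n = 3) in untreated wt cells and 8.86 ± 0.20 in untreated S547A cells. After 4 h it was at 9.43 ± 0.05 in wt and 10.16 ± 0.13 in S547A, and after 8 h at 9.22 ± 0.03 and 9.69 ± 0.10. Of 9 epithelial and kidney markers 5 met the detection rule, among them CDH2 and KRT18, while CDH1, KRT19, PAX2 and PAX8 did not. All 5 neuronal markers met it, with NEFM at a mean of 13.82, as did 4 of 5 fibroblast markers at means of 5.05 to 5.43 and none of 5 blood markers. Levels are log2 intensities after background correction and quantile normalization, and the lowest level called detected on an array was 5.15 to 5.29.

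Of the 100 probes, 48 were detected on no array, 14 on 1 or 2 arrays and 19 on all 18. Among 80 replication-dependent probes 28 met the rule and 10 were detected on every array, and among 20 variant probes 10 met it and 9 were detected on every array. By protein, 2 of 6 replication-dependent H1 probes met it, 8 of 19 for H2A, 10 of 23 for H2B, 4 of 17 for H3 and 4 of 15 for H4. Just inside the rule, on exactly 3 arrays, were probes of H3C13, H2BC9, H2AC7 and H2BC18 with mean levels of 4.80 to 4.95. Just outside it, on 2 arrays, were 6 probes, of H1-5, H4C2, H3C2, H2AC13, H2BC3 and H1-3, with mean levels of 4.79 to 4.93. Members and near misses thus had overlapping signals. A level also depends on the probe's own sequence, so levels of different probes are not set against each other as amounts of mRNA.

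**Figure D1:**
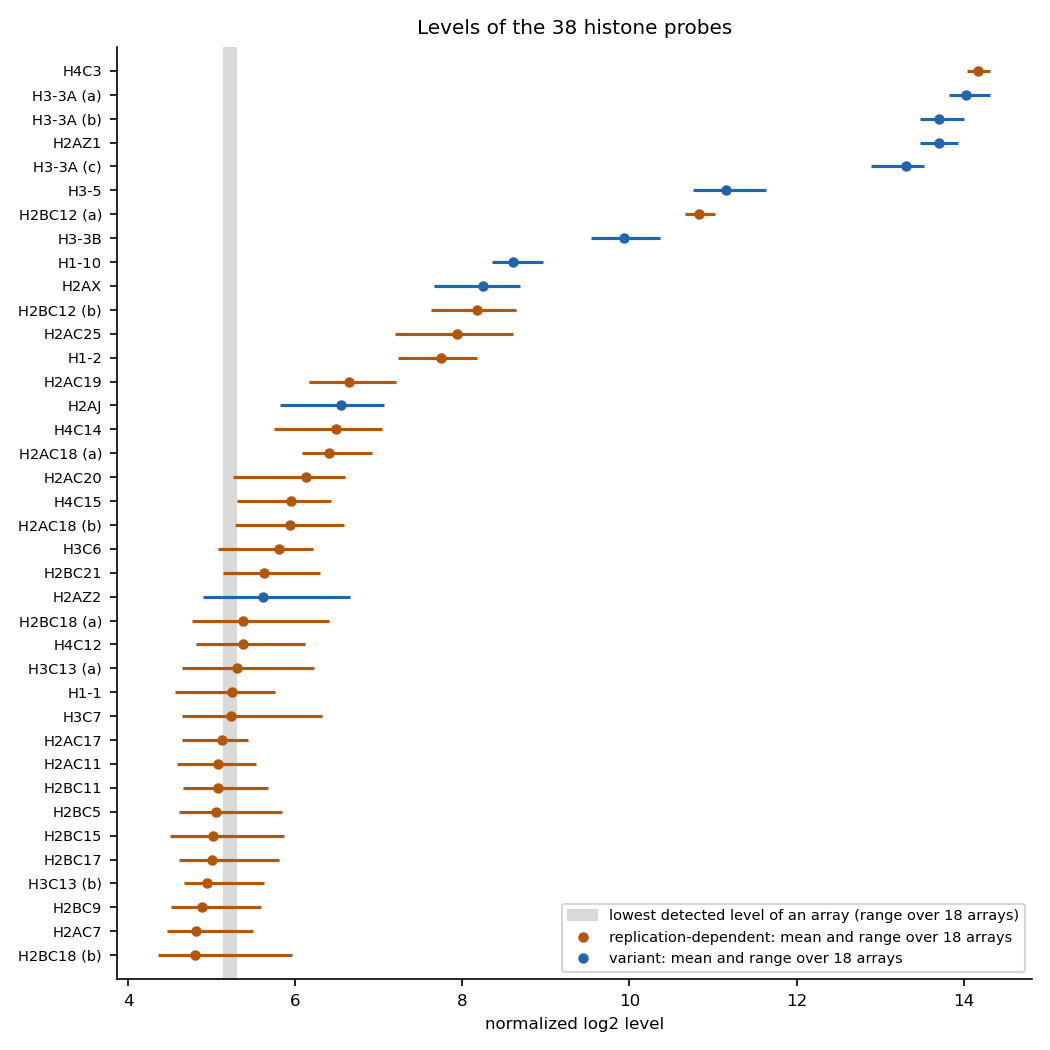
Normalized log2 level of each of the 38 histone probes over 18 arrays (point, mean; line, lowest to highest array), with replication-dependent genes and variants in separate colours and letters marking probes of 1 gene. The H4C3 probe stayed between 14.04 and 14.32, while the dimmest probes lie around the grey band, the lowest detected level of the arrays (5.15 to 5.29).

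In untreated wt cells 30 to 32 of the 38 probes were detected per array, with 28 to 30 after 4 h and 25 to 28 after 8 h. In S547A cells the numbers were 27 to 32, 24 to 30 and 25 to 28. Arrays of wt cells at 8 h thus did not overlap with untreated wt arrays, while the S547A groups did overlap. These numbers move with any probe near the detection limit and were used in choosing the members, so they carry no test.

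The first comparison asks how histone mRNAs changed over 4 h of etoposide. No histone probe was called in either line, where called means an adjusted p under 0.05 from limma with Benjamini-Hochberg adjustment over all 22161 probes. Of all probes, 6.02% were called in wt and 5.35% in S547A, and 4 histone probes in each line had an unadjusted p under 0.05. The median change of the 38 probes on the log2 scale was 0.03 in wt and -0.04 in S547A, against -0.01 over all probes in both. Arrays did not overlap between 4 h and untreated cells for 4 higher and 1 lower histone probes in wt, and 25.4% of all probes did not overlap there (12.7% in each direction). In S547A it was 1 higher and 4 lower, and 21.2% of all probes (10.8% higher and 10.5% lower).

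After 8 h a small number of histone probes were called in each line. In wt cells 1 histone probe was called higher and 3 lower, or 10.5% of 38, where 21.3% of all probes were called (11.5% higher and 9.81% lower). In S547A cells 1 was called higher and 6 lower, or 18.4%, against 22.4% of all probes (11.5% higher and 10.8% lower). The S547A share lay near that of the array as a whole and the wt share was lower, and neither difference was tested. No weight is put on the direction of these calls, because 6 of the 38 probes were detected on fewer than 3 treated arrays and so met the rule with the help of untreated cells, which favours a fall. H2BC5 and the called H2BC18 probe are among them. Without these 6 probes, a choice made after seeing the data, 1 probe was called higher and 1 lower in wt (6.25% of 32), and 1 higher and 5 lower in S547A (18.8%). With each array scaled to its median in place of quantile normalization, S547A gave 2 higher and 3 lower. No histone probe changed 2-fold in any of the 4 etoposide comparisons. The largest change was 0.88 on the log2 scale, while 4.81% of all probes in wt and 4.93% in S547A were called with at least a 2-fold change at 8 h. Median changes of the histone probes were -0.14 in wt and -0.12 in S547A, with -0.02 over all probes in each. Without the 6 probes the medians were -0.12 and -0.09. Arrays at 8 h did not overlap with untreated arrays for 4 higher and 5 lower histone probes in wt and 4 higher and 9 lower in S547A, and for 37.6% (18.9% higher, 18.7% lower) and 35.6% (17.5% and 18.1%) of all probes. The calls come from bulk RNA, in which fewer cells making an mRNA and less of it per cell cannot be told apart.

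**Figure D2:**
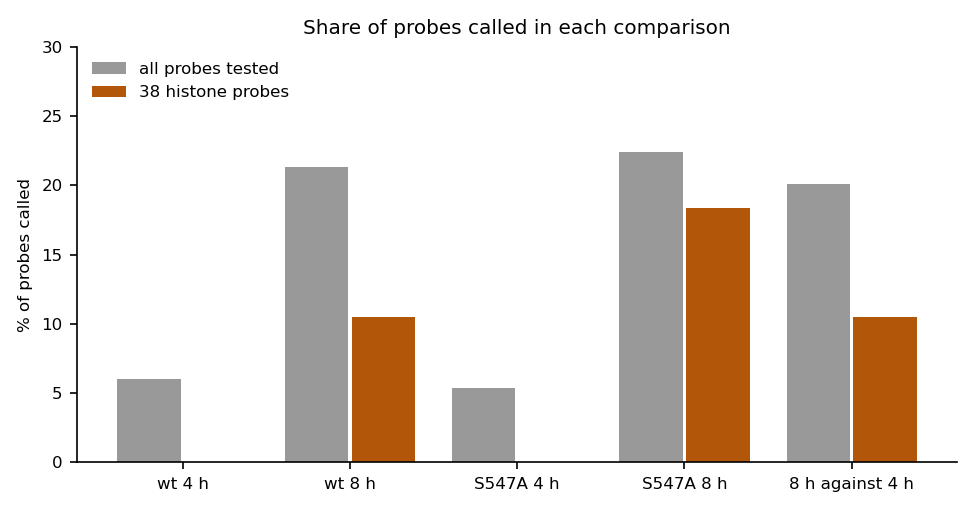
Percent of probes called (limma, adjusted p under 0.05) in each comparison, for all 22161 probes and for the 38 histone probes. No histone probe was called at 4 h, and at 8 h the histone shares were 10.5% in wt and 18.4% in S547A, beside 21.3% and 22.4% of all probes. The differences were not tested.

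H2A and H2B form the dimer that leaves and enters the nucleosome most readily, and their genes hold 22 of the 38 probes. H2AC20 (probe ILMN_1768973) encodes a replication-dependent H2A. Its log2 levels in wt were 6.49, 6.44 and 6.15 on untreated arrays, 6.09, 6.00 and 6.54 at 4 h, and 5.74, 5.74 and 5.83 at 8 h. In S547A they were 6.58, 6.53 and 6.59 untreated, 6.44, 6.28 and 5.83 at 4 h, and 6.14, 5.68 and 5.26 at 8 h. Every 8 h array lay below every untreated array of the same line. The log2 change of H2AC20 was -0.59 ± 0.21 (SE) in wt (adjusted p = 0.0485, limma) and -0.87 ± 0.21 in S547A (adjusted p = 0.00521), which are 1.51-fold and 1.83-fold decreases. The wt call did not survive leaving out any of 5 of the 6 arrays compared (adjusted p up to 0.143), while the S547A call did in all 6 cases. The wt call was also lost without background correction (-0.27, adjusted p = 0.0677), with the authors' normalized table (-0.27, adjusted p = 0.0673), under median scaling (-0.57, adjusted p = 0.0741) and without a detection filter (-0.59, adjusted p = 0.0848). H2BC21, which encodes an H2B and shares the upstream stretch with H2AC20, changed by -0.20 ± 0.25 in wt and 0.43 ± 0.25 in S547A, and was not called (limma, adjusted p = 0.644 and 0.236).

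H2AC25, an H2A gene on chromosome 1 (probe ILMN_1779648), kept its level at 4 h and was lower at 8 h. In wt the levels were 7.97, 8.07 and 7.94 untreated, 8.02, 8.12 and 8.42 at 4 h, and 7.43, 7.71 and 7.44 at 8 h. In S547A they were 8.56, 7.85 and 8.24, then 8.29, 8.61 and 7.99, then 7.20, 7.67 and 7.48. The 3 arrays of each line at 8 h were below all other arrays of that line. Against untreated cells H2AC25 fell by 0.77 ± 0.19 in S547A (adjusted p = 0.00808, limma), and the call was lost without the first untreated S547A array (adjusted p = 0.0514) and under median scaling (-0.53, adjusted p = 0.118). In wt the change was -0.46 ± 0.19, which was not called (adjusted p = 0.103). The change from 4 h to 8 h, averaged over the lines, was -0.75 ± 0.14 (adjusted p = 0.000917), a 1.69-fold decrease that held without each array in turn.

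H2BC5 (probe ILMN_1758623), a replication-dependent H2B gene, was detected mainly in untreated cells. Its wt levels were 5.57, 5.84 and 5.13 untreated, 4.81, 4.86 and 5.11 at 4 h, and 4.61, 4.72 and 4.84 at 8 h. The S547A levels were 5.33, 5.49 and 5.44, then 5.31, 4.95 and 4.80, then 4.65, 4.70 and 4.82. Treated arrays were below untreated arrays at both times in both lines, and no 8 h array had a detected signal. It was detected on 5 untreated arrays and 1 treated array, so it met the detection rule through untreated cells and had to be lower elsewhere. As a description, the fitted changes at 8 h were -0.79 ± 0.17 in wt (adjusted p = 0.00306, limma) and -0.70 ± 0.17 in S547A (adjusted p = 0.00668). With the lowest detected signal of each 8 h array in place of its level, the group mean of H2BC5 was 1.22-fold lower in wt and 1.16-fold lower in S547A. These are point estimates from selected values, without a margin of error, and the untreated wt mean includes an array without a detected signal. At 4 h the changes were -0.58 ± 0.17 (adjusted p = 0.0541) and -0.40 ± 0.17 (adjusted p = 0.219), not called.

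H2BC18 had 2 probes that did not agree. Probe ILMN_3229566 read 5.96, 4.69 and 5.31 in untreated wt cells, 4.73, 4.53 and 4.36 at 4 h and 4.37, 4.48 and 4.48 at 8 h. In S547A it read 4.96, 5.31 and 4.85, then 4.75, 4.99 and 4.76, then 4.67, 4.50 and 4.75. It was detected on 2 untreated wt arrays and 1 untreated S547A array and nowhere else, so it met the detection rule through untreated cells alone and had to be lower elsewhere. Its change in wt at 8 h was -0.88 ± 0.23 (adjusted p = 0.00999, limma). With the lowest detected signals in place of the 8 h levels the decrease was 1.07-fold, a point estimate from selected values. The call was lost without the first untreated wt array (-0.56, adjusted p = 0.0575, limma) and with only the compared groups fitted (adjusted p = 0.0508). The other probe, ILMN_1670093, changed by -0.14 ± 0.34 in wt and -0.01 ± 0.34 in S547A at 8 h. Both H2BC12 probes stayed near their untreated level, with changes of 0.08 ± 0.13 and 0.02 ± 0.21 in wt at 8 h and 0.08 ± 0.13 and 0.11 ± 0.21 in S547A. For its brighter probe the 95% intervals at 8 h ran from -0.19 to 0.35 in wt and from -0.19 to 0.34 in S547A.

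**Figure D3:**
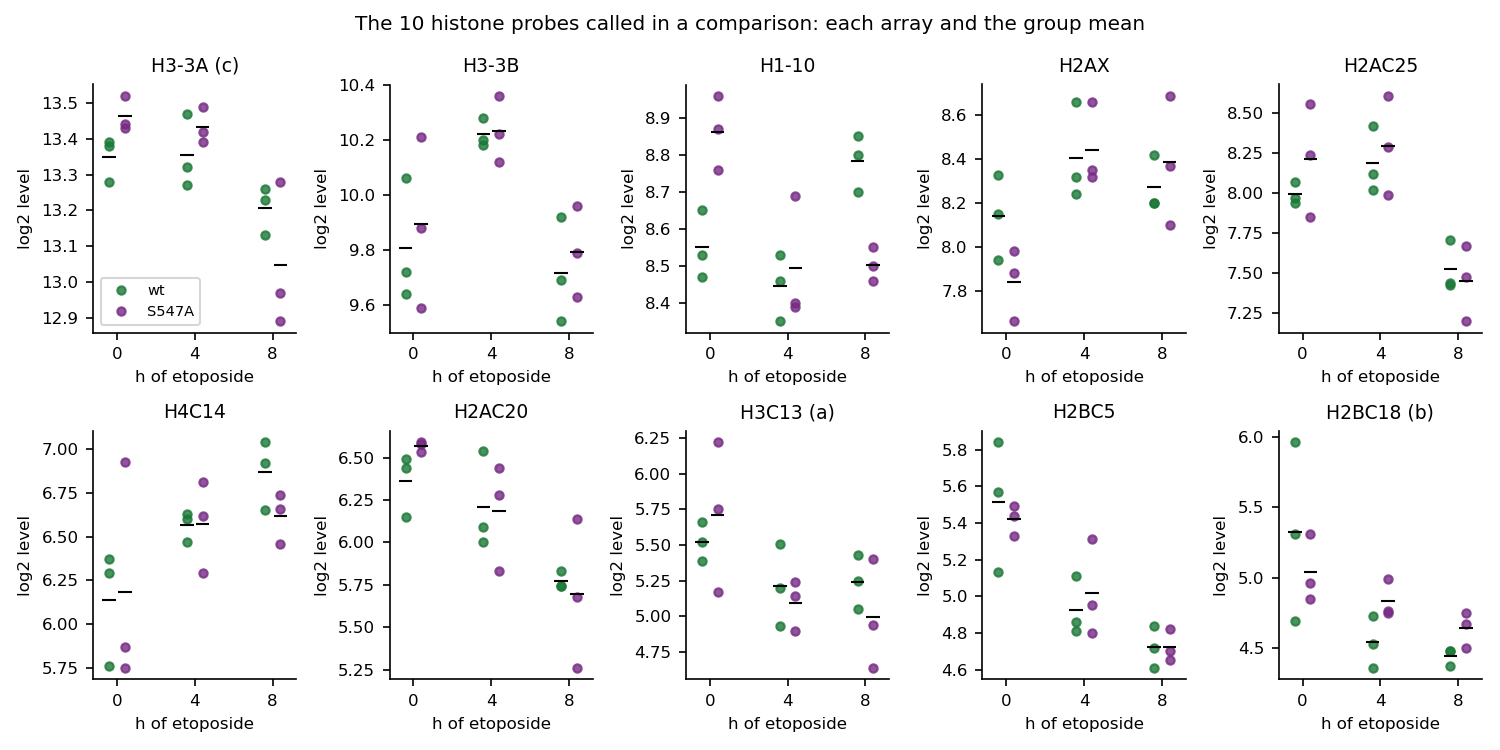
Normalized log2 level on each array (points; wt and S547A in separate colours) and group mean (bar) against hours of etoposide, for the 10 histone probes called in at least 1 comparison. H2AC20, H2AC25 and H2BC5 are lower at 8 h than untreated in both lines, while H4C14 and H2AX have higher means after treatment. H2BC5 and the H2BC18 probe met the detection rule through untreated cells.

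H3 and H4 form the tetramer at the core of the nucleosome. H4C14 (probe ILMN_2115340) was the called histone probe that rose in wt. The H4 genes encode the same protein, and whether these probes also bind mRNA of other copies was not tested. The same holds for the duplicated genes H2AC18 and H2AC19, and for H3-5 beside the H3.3 genes. Levels of H4C14 in wt were 5.76, 6.37 and 6.29 untreated, 6.60, 6.63 and 6.47 at 4 h, and 6.65, 6.92 and 7.04 at 8 h. In S547A they were 5.87, 5.75 and 6.93, then 6.62, 6.29 and 6.81, then 6.46, 6.74 and 6.66. Treated wt arrays were all above untreated ones, while 1 untreated S547A array was above every treated one. The rise in wt at 8 h was 0.73 ± 0.25 (adjusted p = 0.0448, limma), or 1.66-fold, and the call was lost without any of 5 of the 6 arrays (adjusted p up to 0.195) and without a detection filter (0.73, adjusted p = 0.0883). The S547A change of 0.44 ± 0.25 was not called (adjusted p = 0.24). H4C15 changed by -0.13 ± 0.21 in wt and 0.29 ± 0.21 in S547A at 8 h.

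H4C3 (probe ILMN_2075334), 1 of the 3 histone probes with the highest signal, hardly moved. Its levels in wt were 14.16, 14.29 and 14.07 untreated, 14.20, 14.04 and 14.04 at 4 h, and 14.16, 14.18 and 14.32 at 8 h. In S547A they were 14.31, 14.12 and 14.23, then 14.14, 14.09 and 14.13, then 14.22, 14.17 and 14.29. Untreated and treated arrays overlapped at each time in each line. The 95% intervals of the change at 8 h ran from -0.19 to 0.29 in wt and from -0.23 to 0.25 in S547A.

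H3C13 (probe ILMN_1664706), a replication-dependent H3 gene, was called lower in S547A at 8 h, where its groups overlapped. The S547A levels were 5.17, 6.22 and 5.75 untreated, 5.24, 5.14 and 4.90 at 4 h, and 5.40, 4.94 and 4.64 at 8 h. In wt they were 5.52, 5.66 and 5.39, then 5.20, 5.51 and 4.93, then 5.05, 5.43 and 5.25. One untreated S547A array lay below the highest 8 h array. The change was -0.72 ± 0.24 in S547A (adjusted p = 0.0379, limma), and the call was lost without 4 of the 6 arrays (adjusted p up to 0.196). It was also lost under median scaling (-0.60, adjusted p = 0.074), without a detection filter (adjusted p = 0.0723) and with only the compared groups fitted (adjusted p = 0.129). In wt the change was -0.28 ± 0.24 (adjusted p = 0.478). The other kept H3C13 probe, ILMN_3249188, did not share the fall, with 8 h changes of 0.05 ± 0.22 in S547A and 0.00 ± 0.22 in wt (adjusted p = 0.915 and 0.999, limma), but it was detected on only 3 arrays.

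Among the variants, H3-3A and H3-3B both encode H3.3, the H3 form deposited outside replication. H3-3A had 3 probes. On ILMN_1699015 the wt levels were 13.28, 13.38 and 13.39 untreated, 13.32, 13.27 and 13.47 at 4 h, and 13.13, 13.26 and 13.23 at 8 h. In S547A they were 13.52, 13.44 and 13.43, then 13.39, 13.49 and 13.42, then 12.89, 13.28 and 12.97. At 8 h all arrays of each line were below their untreated ones, by a small amount in wt. The change was -0.41 ± 0.12 in S547A (adjusted p = 0.0212, limma) and -0.15 ± 0.12 in wt (adjusted p = 0.465), and the S547A call was lost without 3 of the 6 arrays (adjusted p up to 0.0917) and with only the compared groups fitted (adjusted p = 0.117). The other H3-3A probes, ILMN_1656082 and ILMN_2106331, are the remaining histone probes of highest signal and had S547A changes at 8 h of -0.18 ± 0.12 and -0.26 ± 0.13, not called (adjusted p = 0.354 and 0.17). The 3 probes of H3-3A thus pointed the same way and differed in whether they passed.

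H3-3B (probe ILMN_1695706) was higher at 4 h than at 8 h. Its wt levels were 9.72, 9.64 and 10.06 untreated, 10.20, 10.18 and 10.28 at 4 h, and 9.69, 9.54 and 9.92 at 8 h. The S547A levels were 9.59, 10.21 and 9.88, then 10.12, 10.36 and 10.22, then 9.79, 9.96 and 9.63. In each line every 4 h array was above every 8 h array. Averaged over the lines, the change from 4 h to 8 h was -0.47 ± 0.12 (adjusted p = 0.00835, limma), a 1.39-fold decrease that held without each array in turn. Against untreated cells the 4 h changes of 0.41 ± 0.17 in wt and 0.34 ± 0.17 in S547A were not called (adjusted p = 0.182 and 0.298), nor were those at 8 h (-0.09 and -0.10).

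In the comparison of 8 h with 4 h, 4 histone probes were called, all lower, which is 10.5% against 20.1% of all probes. Besides H2AC25 and H3-3B they were H2AC20 (-0.47 ± 0.15, adjusted p = 0.0303, limma) and the H3-3A probe ILMN_1699015 (-0.26 ± 0.09, adjusted p = 0.0397). The latter calls were lost without 7 and 10 of the 12 arrays compared, with adjusted p up to 0.0822 and 0.0958. Under median scaling 2 of the 4 stayed called, and H3-3B (-0.33, adjusted p = 0.0715) and H2AC20 (-0.37, adjusted p = 0.108) did not. The H2AC20 call was also lost without background correction (-0.2, adjusted p = 0.0501, limma) and without a detection filter (adjusted p = 0.0528). With only the compared groups fitted, both H2AC20 (adjusted p = 0.0616) and the H3-3A probe (adjusted p = 0.0863) were lost.

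H2AX (probe ILMN_2200331) was the called histone probe that rose in S547A. Its levels in S547A were 7.98, 7.66 and 7.88 untreated, 8.66, 8.35 and 8.32 at 4 h, and 8.10, 8.37 and 8.69 at 8 h. In wt they were 8.15, 8.33 and 7.94, then 8.66, 8.32 and 8.24, then 8.20, 8.42 and 8.20. All treated S547A arrays were above the untreated ones, while treated and untreated wt arrays overlapped. The rise in S547A was 0.60 ± 0.17 at 4 h (adjusted p = 0.0511, limma) and 0.55 ± 0.17 at 8 h (adjusted p = 0.029), or 1.46-fold at 8 h. In wt the changes were 0.27 ± 0.17 and 0.14 ± 0.17 (adjusted p = 0.461 and 0.653). The 8 h call was lost without 4 of the 6 arrays (adjusted p up to 0.146) and with only the compared groups fitted (adjusted p = 0.0851). The 4 h change passed under 5 alternatives, which are not independent of one another. It was 0.47 both without background correction and with the authors' normalized table (adjusted p = 0.018 and 0.0178, limma). A stricter filter and 1 probe a gene left it at 0.60 and changed only which probes were fitted (adjusted p = 0.0262 and 0.0306). Under median scaling it was 0.77 (adjusted p = 0.0497). The S547A response minus the wt response was 0.33 ± 0.24 at 4 h and 0.41 ± 0.24 at 8 h and was not called (adjusted p = 0.98 and 0.776).

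H1-10 (probe ILMN_1773964) encodes a linker histone whose mRNA is polyadenylated. Its S547A levels were 8.87, 8.76 and 8.96 untreated, 8.69, 8.39 and 8.40 at 4 h, and 8.55, 8.46 and 8.50 at 8 h. In wt they were 8.47, 8.65 and 8.53, then 8.46, 8.35 and 8.53, then 8.85, 8.80 and 8.70. At 8 h all arrays were below the untreated ones in S547A and above them in wt. The S547A change of -0.36 ± 0.12 was called (adjusted p = 0.0412, limma), and the wt change of 0.24 ± 0.12 was not (adjusted p = 0.19). The S547A call was lost without 5 of the 6 arrays, with adjusted p up to 0.133, and under median scaling the change was -0.12 (adjusted p = 0.711). The test of the difference between the lines gave -0.60 ± 0.17 with an unadjusted p of 0.00281 and an adjusted p of 0.634 in limma, and so was not called.

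H2AZ1 encodes H2A.Z, a variant found at promoters. It was detected on every array at a mean of 13.71 and changed by 0.14 ± 0.13 in wt and 0.13 ± 0.13 in S547A at 8 h. H3-5, whose sequence is close to that of the H3.3 genes, changed by 0.23 ± 0.16 and 0.16 ± 0.16. Neither was called. In all, 28 of the 38 histone probes were called in no comparison. For 25 of them, all but the 3 of highest signal, the changes ranged from -0.38 to 0.65 in wt and from -0.45 to 0.34 in S547A at 4 h, and from -0.46 to 0.45 and from -0.52 to 0.60 at 8 h. The upper ends at 4 h in wt and at 8 h in S547A belong to the same probe, ILMN_2144426 of H2AC18 (adjusted p = 0.0965 and 0.0567, limma).

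**Figure D4:**
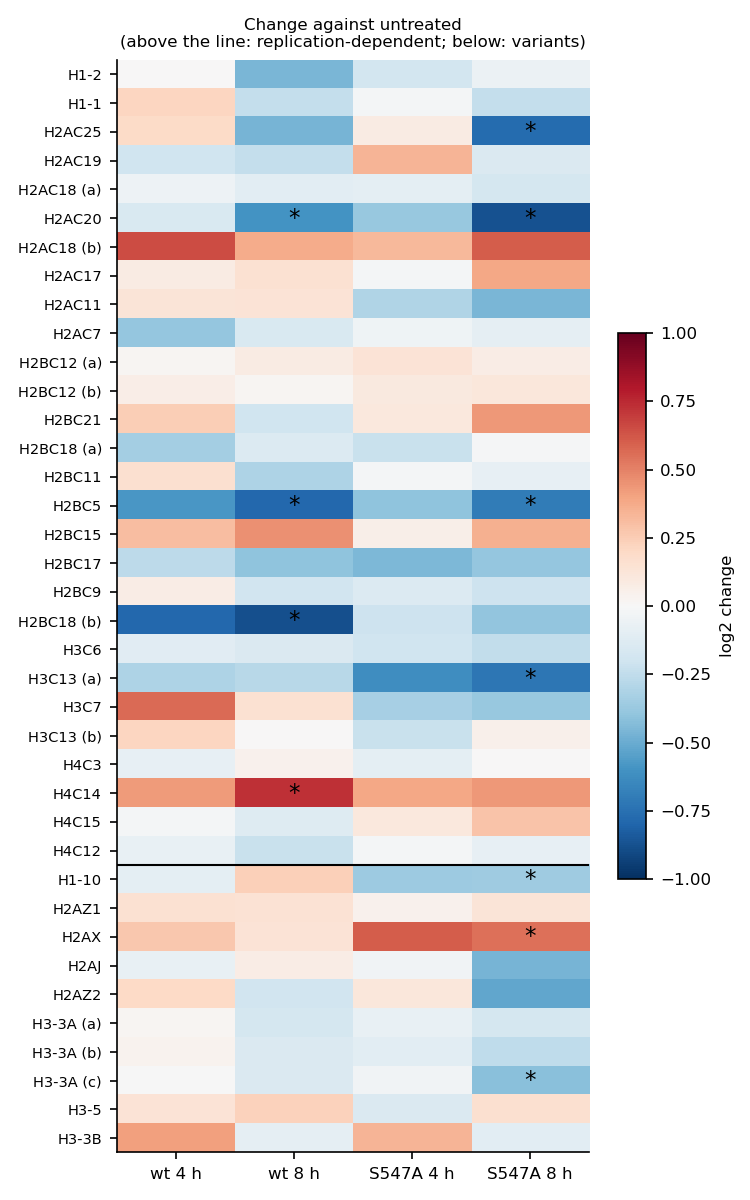
Log2 change against untreated cells for each of the 38 histone probes (rows) in the 4 etoposide comparisons (columns), with asterisks on called probes. The strongest blue cells at 8 h are H2AC20, H2AC25, H2BC5, H3C13 and 1 of 2 H2BC18 probes, and most other cells are pale.

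Medians over the protein classes at 8 h are given as a description. The 6 probes that met the rule with the help of untreated cells are all replication-dependent, and most are H2B. This favours a fall in the medians and signs of those classes, so no weight is put on their direction. For the 28 replication-dependent probes the median change was -0.15 in wt and -0.09 in S547A, with 10 probes above 0 in each line. For the 10 variants it was -0.01 and -0.22, with 5 and 3 probes above 0. H2B had a median of -0.19 in wt and -0.05 in S547A over 10 probes, H2A -0.01 and -0.16 over 12, H3 -0.15 and -0.25 over 9, and H4 -0.04 and 0.15 over 4. The 3 H1 probes had a median of -0.24 in each line.

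S547A and wt cells were then compared in each condition. No histone probe was called untreated, at 4 h or at 8 h, where 0.0135%, 0.0406% and 0.0496% of all probes were. An unadjusted p under 0.05 was reached by 3, 1 and 1 of the 38 probes. The 3 in untreated cells were H4C15 (-0.64 ± 0.21, adjusted p = 0.721, limma), H3C7 (0.72 ± 0.28, adjusted p = 0.858) and H1-10 (0.31 ± 0.12, adjusted p = 0.838), which were named after their values were seen. For H2AC20, H2AC25 and H2BC5 the untreated differences were 0.20, 0.22 and -0.09, and at 8 h they were -0.07, -0.08 and 0.00. The 95% interval of the 8 h difference for H2BC5 ran from -0.36 to 0.36. The S547A response to etoposide minus that of wt gave no called histone probe at 4 h or at 8 h, with 0.0135% and 0.018% of all probes called. Each had 1 histone probe with an unadjusted p under 0.05, H3C7 at 4 h and H1-10 at 8 h.

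Genes that serve histones were read from the same fit, with the brightest detected probe of each gene. Their counts at 8 h stand against 11.5% of all probes called higher in each line, and 9.81% lower in wt and 10.8% lower in S547A. Those shares also cover dim and unnamed probes. With 12055 genes fitted on their brightest probe alone, 1994 were called higher and 1589 lower in wt at 8 h. In S547A it was 1945 and 1729, and this holds beside each list below. At 4 h, 773 of all 22161 probes were called higher in wt and 704 in S547A. Of 17 measured genes of histone transcription and 3′ processing, 1 rose at 4 h in wt and none in S547A. By 8 h, 6 had risen in wt and 7 in S547A, where CSTF2 fell, with median changes of 0.25 and 0.42 against -0.02 over all probes. HINFP, an activator of H4 genes, rose by 1.09 ± 0.18 in wt and 0.73 ± 0.18 in S547A (adjusted p = 0.000405 and 0.00851, limma). CSTF2T, a homolog of the cleavage factor CSTF2, rose by 0.88 ± 0.18 and 0.78 ± 0.18, while CSTF2 fell in S547A by 0.54 ± 0.15 (adjusted p = 0.0124). NPAT, the coactivator of replication-dependent histone genes, rose in S547A by 0.85 ± 0.28 (adjusted p = 0.0386) and had a wt value of 0.68 ± 0.28 (adjusted p = 0.102). SLBP, which binds the stem-loop of replication-dependent mRNAs, changed by 0.03 ± 0.14 and 0.01 ± 0.14. Under median scaling 6 rose in wt and 9 in S547A, none fell, and the 4 h rise in wt was lost.

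Of 24 histone chaperones and deposition factors, 4 rose at 4 h in wt and none in S547A. Over all 22161 probes, 773 and 704 were called higher there. Calls at 8 h were 7 higher and 1 lower in wt, and 5 higher and 2 lower in S547A, with median changes of 0.11 and 0.12 against -0.02 over all probes. HJURP, which loads the centromeric H3 variant, rose by 1.23 ± 0.14 in wt and 1.12 ± 0.14 in S547A (adjusted p = 1.19e-05 and 3.02e-05, limma). SPTY2D1, an H3-H4 chaperone, rose by 1.23 ± 0.20 and 1.07 ± 0.20. RBBP4, a subunit of the CAF-1 complex among others, fell by 0.40 ± 0.13 in each line (adjusted p = 0.0344 and 0.0335), and CABIN1, of the HIRA complex, fell by 0.77 ± 0.26 in S547A (adjusted p = 0.0398). Under median scaling 6 rose in each line at 8 h and none fell, and none was called at 4 h.

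The H2AX pathway list holds kinases, readers and phosphatases of the phosphorylated form. Of its 10 measured genes, wt had 5 called higher and 1 lower at 8 h and S547A had 5 higher, where 11.5% of all probes were called higher in each line, with medians of 0.28 and 0.26 against -0.02 over all probes. EYA3, a tyrosine phosphatase that acts on H2AX, rose by 1.63 ± 0.24 in each line (adjusted p = 9.78e-05 and 9.37e-05, limma), and by 1.01 ± 0.24 in S547A at 4 h. PPM1D, a phosphatase of the serine mark, rose by 0.84 ± 0.15 and 1.11 ± 0.15. EYA1 fell at 4 h, with changes of -0.81 ± 0.16 in wt and -1.07 ± 0.16 in S547A (adjusted p = 0.00475 and 0.000488), and PRKDC, the catalytic subunit of DNA-PK, fell in wt at 8 h by 0.55 ± 0.17. Under median scaling 4 genes rose in each line at 8 h and PRKDC was not called lower.

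Replication-dependent histone genes share their time of use with the S phase genes, a list of replication and nucleotide synthesis genes. Of 14 measured S phase genes, 3 in wt and 2 in S547A were called higher at 4 h, where 6.02% and 5.35% of all probes were called in either direction. At 8 h it was 8 and 6, with none lower in either line, where 11.5% of all probes were called higher in each, and medians of 0.44 and 0.41 against -0.02 over all probes. CDT1, which loads the replicative helicase, rose by 0.93 ± 0.15 in wt and 1.10 ± 0.15 in S547A (adjusted p = 0.000286 and 5.97e-05, limma). MCM5, a subunit of that helicase, rose by 0.71 ± 0.16 in wt (adjusted p = 0.00356), and CDC6, which also takes part in helicase loading, rose by 0.90 ± 0.18 in S547A at 4 h. Under median scaling 5 and 3 rose at 8 h, and at 4 h 0 in wt and 2 in S547A. The lists were set with earlier results of these data known, and no test was made of a list against the histone probes.

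**Figure D5:**
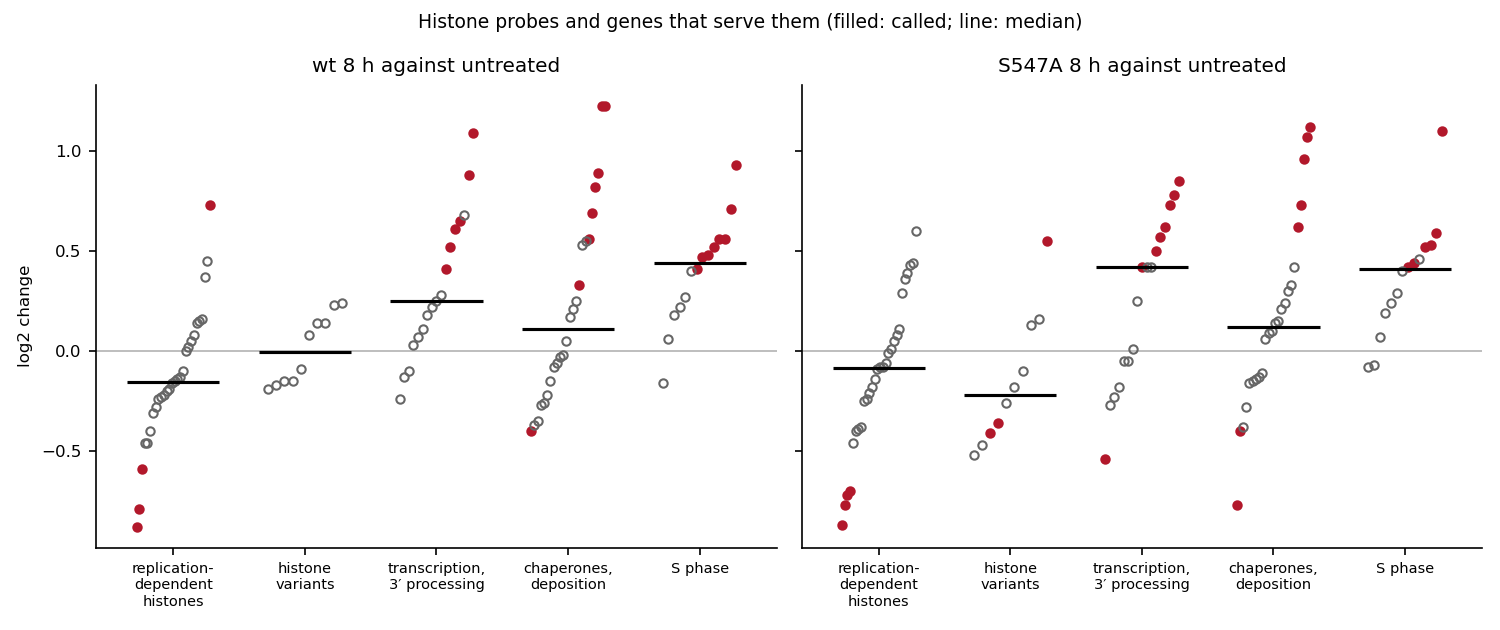
Log2 change at 8 h of etoposide for the histone probes and for the genes of 3 lists (points, filled where called; bars, medians), in wt (left) and S547A (right). Median changes of the replication-dependent histones are -0.15 in wt and -0.09 in S547A, and those of the S phase genes 0.44 and 0.41. The sets are unlike: every detected histone probe is shown, many near the detection limit, and list genes by their brightest probe. No test was made between them.

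Some markers of cell type also moved at 8 h, where 21.3% of all probes were called in wt and 22.4% in S547A. NEFL, a neuronal filament gene that this line expresses, fell, with log2 changes of -1.61 ± 0.16 in wt and -1.81 ± 0.16 in S547A (adjusted p = 2.14e-06 and 5.77e-07, limma). CDH2, an adhesion gene, also fell, with -1.07 ± 0.12 and -0.87 ± 0.12 (adjusted p = 6.61e-06 and 5.63e-05). In S547A at 8 h KRT18 was also lower and INA higher. No other neuronal, epithelial or kidney marker was called at 8 h. The summed level of the 5 neuronal markers was 41.25 to 42.03 on untreated wt arrays and 39.20 to 40.34 at 8 h, with 41.04 to 41.90 and 39.37 to 40.50 in S547A. For the 5 epithelial and kidney markers it was 34.07 to 35.08 and 32.13 to 33.07 in wt, and 33.60 to 33.79 and 31.22 to 33.16 in S547A. These sums add log2 values, so 1 gene can move them. Median changes of the neuronal markers at 8 h were -0.11 in wt and -0.19 in S547A. Those of the epithelial and kidney markers were -0.41 and -0.02. The 4 fibroblast markers summed to 20.61 to 21.44 and 19.88 to 21.60 in wt, and none was called at any time. The part of these shifts in the histone changes was not tested.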

How the data were processed

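Arrays were Illumina bead arrays of total RNA. Linear intensity and detection p-value columns for each array make up the deposited table, per the file headers. The submitters' processing notes name GenomeStudio. The authors' second table holds normalized intensities and served as an alternative. The neqc function did background correction (from the detection p-values), quantile normalization and the log2 step (limma 3.58.1, R 4.3.3, offset 16). Symbols came from the platform annotation, 30112 probes having 1 symbol. Probes detected on at least 3 arrays were fitted with group means over all 18 arrays (12 residual and 16.9 moderated degrees of freedom), with Benjamini-Hochberg adjustment within each of 10 comparisons. Where no dim array had a detected signal, a fold was also taken with the higher of the lowest detected signal and the probe's own on each. That fold has no margin of error. The number of arrays limits the precision. No array pair held identical values.

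Members and lists were chosen with earlier results of these data known. Named were every called histone probe, H2AX, the 3 probes of highest mean level, and up to 2 called genes per list, direction and comparison with SLBP and NPAT. Lists cover histone transcription and 3′ processing, chaperones, the H2AX pathway, S phase and 4 marker sets. The fit was tested on simulated data. Alternatives changed background correction, scaling, filter, probe choice, groups fitted, replicate block and arrays left out.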

Additional observations from a re-analysis of the deposited data

How the results depend on the processing

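Deviations from group means correlated at -0.063 to 0.185 for same-numbered arrays of different groups (median 0.061, 45 pairs). For different-numbered arrays they correlated at -0.204 to 0.098 (median -0.033, 90 pairs). Same-numbered arrays were thus slightly alike, and the main fit did not pair them. Deviations within a group cancel out, so the values for different-numbered arrays largely follow from those for same-numbered arrays and add no separate evidence. Over all probes, a replicate block took wt calls at 8 h from 2556 higher and 2175 lower to 2675 and 2388. In S547A at 8 h it took them from 2550 and 2404 to 2704 and 2594. With the replicate number as a block, no histone call changed (wt 8 h 1 higher and 3 lower, S547A 8 h 1 and 6, 8 h against 4 h 0 and 4), and counts over the comparisons between lines stayed at 0. Counts of called histone probes that moved were these, with causes not tested. Without background correction and with the authors' normalized table, wt 4 h had 1 lower (H2BC18) and S547A 4 h had 1 higher (H2AX). Median scaling gave 1 higher for S547A 4 h, 2 higher and 3 lower for S547A 8 h, and 2 lower for 8 h against 4 h. Without a filter wt 8 h had 0 higher. The stricter filter, which kept 21 histone probes, gave 1 lower for wt 8 h, 1 higher and 1 lower for S547A 4 h, and 2 higher for S547A 8 h. With 1 probe a gene, wt 4 h had 1 lower and S547A 4 h 1 higher and 1 lower. Fitting only the compared groups gave 0 higher and 3 lower for S547A 8 h and 2 lower for 8 h against 4 h. Leaving out each array in turn gave 0 to 1 lower for wt 4 h, 0 to 1 higher and 1 to 3 lower for wt 8 h, 0 to 1 higher and 0 to 1 lower for S547A 4 h, 0 to 2 higher and 3 to 5 lower for S547A 8 h, 2 to 5 lower and 0 to 0 higher for 8 h against 4 h, and 0 to 0 elsewhere. No named change reversed its sign past the threshold. Over all probes, fitting only the compared groups cut calls at 4 h from 773 higher and 562 lower to 429 and 333 in wt and from 704 and 481 to 205 and 115 in S547A. Median scaling changed the share of calls that were higher from 57.9% to 31.7% in wt at 4 h, from 54% to 66.9% in wt at 8 h, from 59.4% to 83.7% in S547A at 4 h, from 51.5% to 77.3% in S547A at 8 h and from 53% to 80.2% for 8 h against 4 h, with the median of all probes at -0.11 in wt at 4 h. The scalings of the pathway lists were chosen after seeing the data. Most replication-dependent histone probes lay near or below the lowest detected signal, which limits what could be seen.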
